A study of Mus musculus with 32 samples.

Results

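The genes described here are the 50 members of a list of mitosis and G2/M genes, gathered by name for known roles in cell division. Each gene was read from the probe set that carries its symbol alone, and where several did, from the 1 that was brightest on average across the 32 arrays. This gave 49 measured genes of the 18193 genes with a probe set of a single symbol; no probe set carried the symbol Ccnb1 alone, and cyclin B1 was not analysed here. All 49 passed the filter on low values in every tissue.

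Mitosis is driven by the kinase CDK1 bound to cyclins A and B, and most of the genes that carry it out are transcribed only late in the cell cycle, so their messenger RNA is abundant in dividing cells and scarce in resting ones. In lymphoid tissue such cells include thymocytes, activated lymphocytes, germinal centre B cells, plasmablasts and, in the mouse spleen, red cell precursors. Their promoters commonly hold a CHR element (cell cycle genes homology region) and CCAAT boxes, which are read by the MuvB complex with B-MYB or FOXM1 and by NF-Y.

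The arrays came from female C57BL/6 mice aged 12 weeks that carried a CD2-CD30L transgene, in which CD30 ligand is made constitutively by T cells, and from littermates without it, called wild type here. Each of the 4 transgenic and 4 wild type mice gave peripheral lymph node, mesenteric lymph node, spleen and thymus, with 1 array per tissue. Both genotypes shared strain, sex and age. P-values of the genotype comparisons within a tissue, and of their differences between tissues, measure the spread between these mice. Those between tissues of wild type mice, with mouse as a block, measure the spread left after differences between mice are removed. The number of founder lines is not given in the labels. The only probe set of Tnfsf8, the gene of CD30 ligand, did not separate the genotypes (limma log2 difference 0.01 ± 0.09 in peripheral node and 0.07 ± 0.10 in spleen, SE, adjusted p = 0.984 and 0.893), and where it lies relative to the transgene is not given in the sources used here, so the genotypes rest on the labels alone.

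Levels are log2 of the intensity plus 16, with negative intensities set to 0. They were quantile normalized over all 32 arrays for levels between tissues, and over the 8 arrays of a tissue for comparisons of genotype. Differences on this scale understate those of dim genes. The trimmed mean intensity ran from 106 to 273 over the arrays, and the ratio of 3' to 5' signal of Actb, a sign of RNA quality, from 1.34 to 3.58. Thymus and spleen showed markers of their labels. On the scale of 32 arrays, lymphocyte precursor markers averaged at least 9.46 in thymus and at most 7.28 elsewhere, and erythroid markers at least 9.03 in spleen and at most 5.68 elsewhere. No list of lymph node markers was read, so the labels of both nodes were not checked in this way. Some arrays had high markers of other tissue, with high muscle markers in peripheral nodes of wild type mice 1 and 3 and transgenic mouse 1, and high exocrine pancreas markers in mesenteric nodes of wild type mouse 2 and transgenic mice 1 and 3. The thymus of wild type mouse 2 also had high muscle markers, at 7.23 against 5.13 to 5.54 in the other thymuses. Pancreas markers were raised in the spleens of wild type mice 1 and 4, at 6.93 and 6.19 against 5.07 to 5.44 in the other spleens.

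The proximal promoters of 6 members followed through the text are shown because they display the sequence elements that these genes share. Each line gives the 100 bases before the annotated start, 5' to 3' on the gene's strand, from RefSeq's table for GRCm38.p6. Capitals mark a CHR core (TTTGAA or TTCGAA, or TTCAAA on the other strand) or a CCAAT box (CCAAT, or ATTGG on the other strand). Cdk1 lies at chr10:69352913-69353012, minus strand, Cdc20 at chr4:118437344-118437443, minus strand, Top2a at chr11:99024190-99024289, minus strand, Plk1 at chr7:122159335-122159434, plus strand, Mki67 at chr7:135716380-135716479, minus strand, and the second of the annotated starts of Cep55 at chr19:38054941-38055040, plus strand.
Cdk1: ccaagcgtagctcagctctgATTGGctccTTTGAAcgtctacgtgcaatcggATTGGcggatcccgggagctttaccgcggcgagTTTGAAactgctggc
Cdc20: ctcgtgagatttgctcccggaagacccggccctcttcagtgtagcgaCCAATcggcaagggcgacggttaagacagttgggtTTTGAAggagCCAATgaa
Top2a: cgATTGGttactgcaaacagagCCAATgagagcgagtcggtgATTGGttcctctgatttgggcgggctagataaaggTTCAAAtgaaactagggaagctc
Plk1: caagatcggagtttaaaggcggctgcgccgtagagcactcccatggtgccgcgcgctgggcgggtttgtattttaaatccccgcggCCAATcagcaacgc
Mki67: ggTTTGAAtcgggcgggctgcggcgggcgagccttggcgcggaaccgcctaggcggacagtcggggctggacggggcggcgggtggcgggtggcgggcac
Cep55: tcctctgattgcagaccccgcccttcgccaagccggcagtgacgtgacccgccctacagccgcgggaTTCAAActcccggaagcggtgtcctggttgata

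Cdk1 and Top2a held both elements upstream of the start, as did Cdc20, whereas Mki67 and Cep55 held a CHR core and no CCAAT box in this stretch. Plk1 held a CCAAT box here and its CHR core within the 50 bases after the start. The table held promoters for 41 of the 50 members, 44 in all. A CHR core lay between 100 bases before and 50 after the start in 32 of these 44 (72.7%), against 8.59% of all 32851 promoters searched on both strands in the same window. A CCAAT box lay in the 100 bases before the start in 65.9%, against 18.9% of all, and both were present in 54.5%, against 1.64%. No CHR match overlapped a CCAAT match. These matches are descriptions of letters in a window and not of binding.

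**Figure D1:**
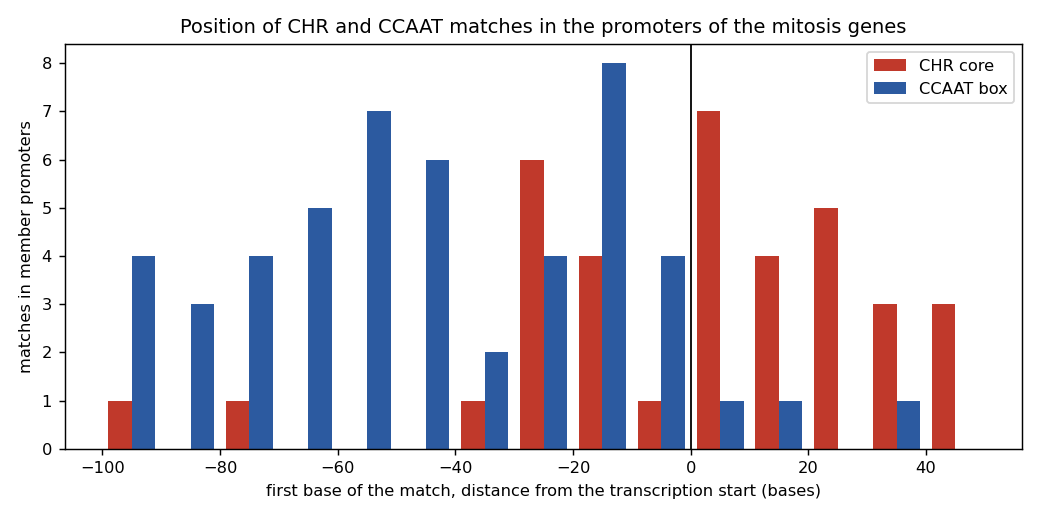
Number of motif matches in the 44 member promoters (vertical axis) by the distance of the first base of the match from the transcription start in bases (horizontal axis), with CHR cores in red and CCAAT boxes in blue. CHR cores centred on the start, with a median first base of 5.5, and CCAAT boxes upstream of the start had a median of -48.

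In wild type mice the mitotic genes were lowest in peripheral lymph node, higher in mesenteric node, higher again in spleen and highest in thymus. The mean over the 49 genes was 7.31 ± 0.07 in peripheral node, 8.14 ± 0.10 in mesenteric node, 9.30 ± 0.38 in spleen and 10.01 ± 0.14 in thymus (SD, n = 4 each). These group ranges did not overlap at any step except between spleen and thymus, where 1 spleen (9.83, wild type mouse 4) lay just above the lowest thymus (9.80). The order of the 4 means was the same for 45 of the 49 genes. Mki67 and the condensin subunit Smc2 were higher in spleen than in thymus, Smc4 was lower in mesenteric than in peripheral node, and Cep55 was lower in spleen than in mesenteric node. In bulk tissue, more dividing cells and more RNA of these genes per cell cannot be told apart.

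Mki67, which coats mitotic chromosomes and is the common marker of dividing cells, stood at 8.43, 8.46, 8.55 and 8.15 in the 4 wild type peripheral nodes and at 10.15, 9.94, 9.61 and 9.72 in the mesenteric nodes. The spleens read 11.60, 12.00, 11.94 and 12.37 and the thymuses 11.96, 11.86, 11.88 and 11.76, so that spleen and thymus overlapped while both nodes lay far below. Top2a, the topoisomerase that untangles sister chromatids, averaged 8.42 ± 0.15, 9.55 ± 0.26, 10.83 ± 0.29 and 12.09 ± 0.08 in peripheral node, mesenteric node, spleen and thymus (SD, n = 4). Cdk1, the kinase that triggers entry into mitosis, averaged 7.98 ± 0.20, 9.18 ± 0.13, 10.51 ± 0.37 and 11.05 ± 0.11. For both genes each tissue lay above the one before without overlap, except that Cdk1 of the highest spleen, 11.03, lay within the thymus range. The polo kinase Plk1, which acts at centrosomes, kinetochores and the midzone, averaged 7.35 ± 0.17, 7.99 ± 0.26, 9.13 ± 0.46 and 9.86 ± 0.33, with overlap between spleen and thymus. Cdc20, the activator of the anaphase promoting complex, averaged 8.17 ± 0.27, 9.35 ± 0.25, 10.45 ± 0.21 and 11.24 ± 0.14.

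**Figure D2:**
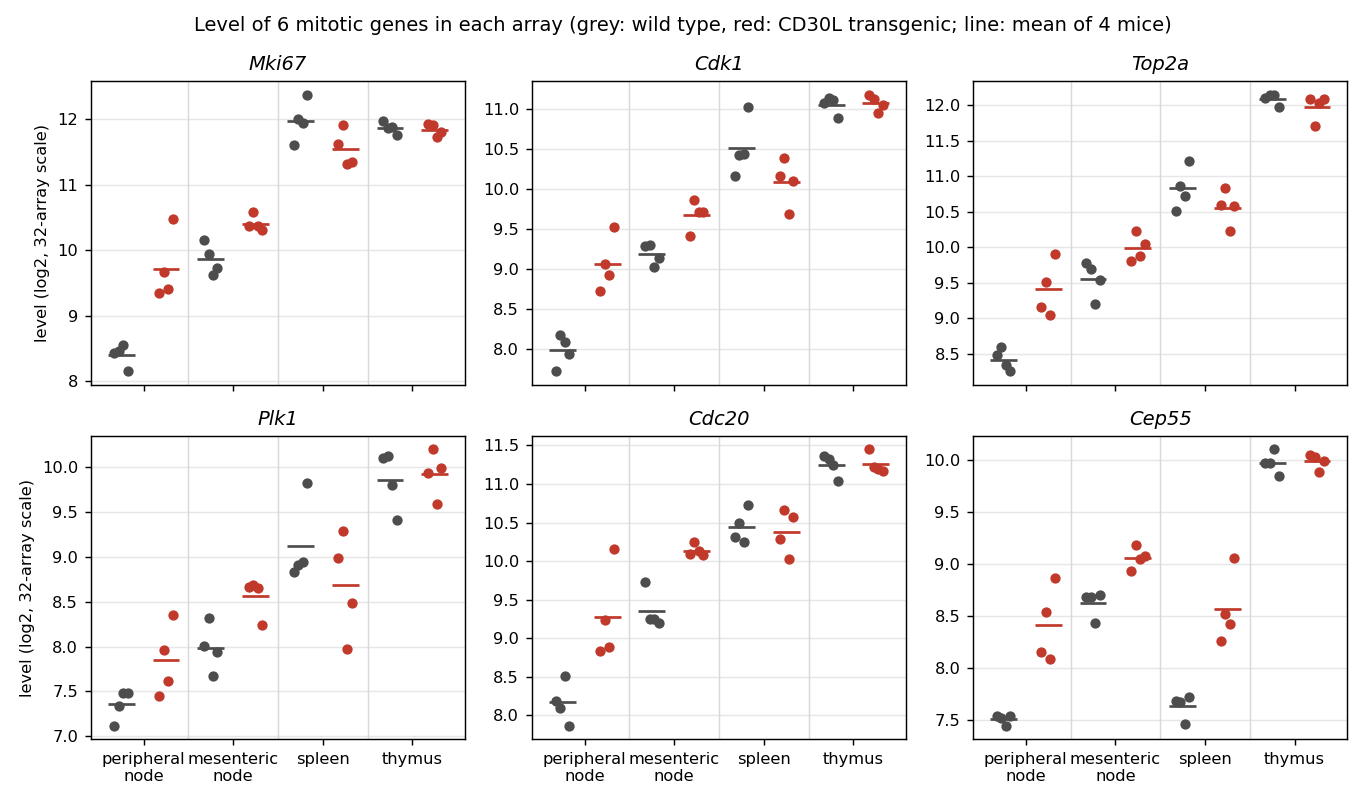
Level (log2, normalized over 32 arrays, vertical axis) of 6 mitotic genes in each array of the 4 tissues (horizontal axis), wild type in grey and CD30L transgenic in red, with a line at the mean of 4 mice. In the peripheral node all panels but Plk1 show the transgenic points above the wild type points, and Cep55 also separates the genotypes in spleen.

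Averaged over both nodes, 47 of the 49 genes were lower in wild type nodes than in spleen of the same mice by limma with mouse as a block (adjusted p below 0.05), where 19.7% of 27022 probe sets were called lower. The median over the genes was -1.63, against 0.05 over all probe sets, and -0.67 in the transgenic mice. The largest differences were those of Mki67 (-2.85 ± 0.15, SE), the kinetochore protein Cenpf (-2.79 ± 0.18), the ubiquitin conjugating enzyme Ube2c, which works with the anaphase promoting complex (-2.72 ± 0.18), the contractile ring scaffold Anln (-2.49 ± 0.22) and the passenger complex subunit Birc5 (-2.40 ± 0.20), with adjusted p between 5.29e-08 and 3.62e-06. Mki67 was 7.21-fold and Cenpf 6.93-fold higher in spleen on this scale. Foxm1, a transcription factor of late cell cycle genes, did not pass (-0.33 ± 0.21, adjusted p = 0.227). Smc4, a core condensin subunit, passed with a small difference (-0.36 ± 0.11, adjusted p = 0.0176).

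Cep55, which recruits the machinery that cuts the midbody bridge at the end of cytokinesis, went the other way: it was the only member higher in wild type nodes than in spleen, by 0.43 ± 0.08 (adjusted p = 0.00133; 23% of probe sets were called higher). Its levels were 7.68, 7.68, 7.46 and 7.73 in the wild type spleens, 7.55, 7.52, 7.45 and 7.55 in peripheral nodes and 8.68, 8.69, 8.43 and 8.70 in mesenteric nodes. The wild type spleens thus lay close to the peripheral nodes and below every mesenteric node. In thymus Cep55 stood at 9.97, 9.97, 10.10 and 9.85, above every array of the other wild type tissues. Without normalization the difference between nodes and spleen was 0.14 and did not pass (adjusted p = 0.703).

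Against thymus, all 49 genes were lower in wild type nodes and 0 higher (background 31.1% and 29.7%), with a median of -2.36, and of -1.71 in the transgenic mice. The largest differences were those of Cenpf (-3.27 ± 0.18), the RhoA activator Ect2, which positions the cleavage furrow (-3.24 ± 0.20), Top2a (-3.11 ± 0.13), the spindle motor Kif11, which pushes the poles apart (-3.04 ± 0.16), and the mitotic cyclin Ccnb2 (-2.83 ± 0.21). Cenpf and Ect2 were 9.63-fold and 9.44-fold higher in thymus, with adjusted p of 1.64e-08 and 4.19e-08. The smallest was that of Smc4 (-1.16 ± 0.11). The medians of the functional groups ran from -2.19 for CDK1 and its partners to -2.64 for chromosome structure.

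Between the nodes of wild type mice, 23 of the 49 genes were higher in mesenteric than in peripheral node and none lower (adjusted p below 0.05; 1.47% and 0.718% of all probe sets were called higher and lower). The median was 0.85, and 0.50 in the transgenic mice. By role it ran from 0.67 for the chromosomal passenger genes to 1.19 for the anaphase genes. The condensin subunit Ncapg had the largest difference (1.72 ± 0.18, 3.29-fold, adjusted p = 4.03e-04). Its levels were 6.02, 6.21, 6.23 and 6.05 in peripheral and 7.79, 7.89, 7.77 and 7.95 in mesenteric nodes, which lie far apart. Next came Mki67 (1.46 ± 0.17), the spindle assembly factor Tpx2 (1.27 ± 0.29), the outer kinetochore subunit Nuf2 (1.24 ± 0.25) and the checkpoint kinase Ttk (1.23 ± 0.24), with adjusted p from 9.21e-04 to 0.0422. The count varied with the mouse left out: it was 5 without mouse 1, 9 without mouse 2, 8 without mouse 3 and 20 without mouse 4, with a median between 0.82 and 0.90. No share of all probe sets was computed for these settings, so these counts have no background beside them. The count was 7, with a median of 0.91, when the wild type arrays with the most muscle or pancreas signal were left out, again without such a share. It was 2 on the values as deposited (0.355% of probe sets, whose median was then -0.22).

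**Figure D3:**
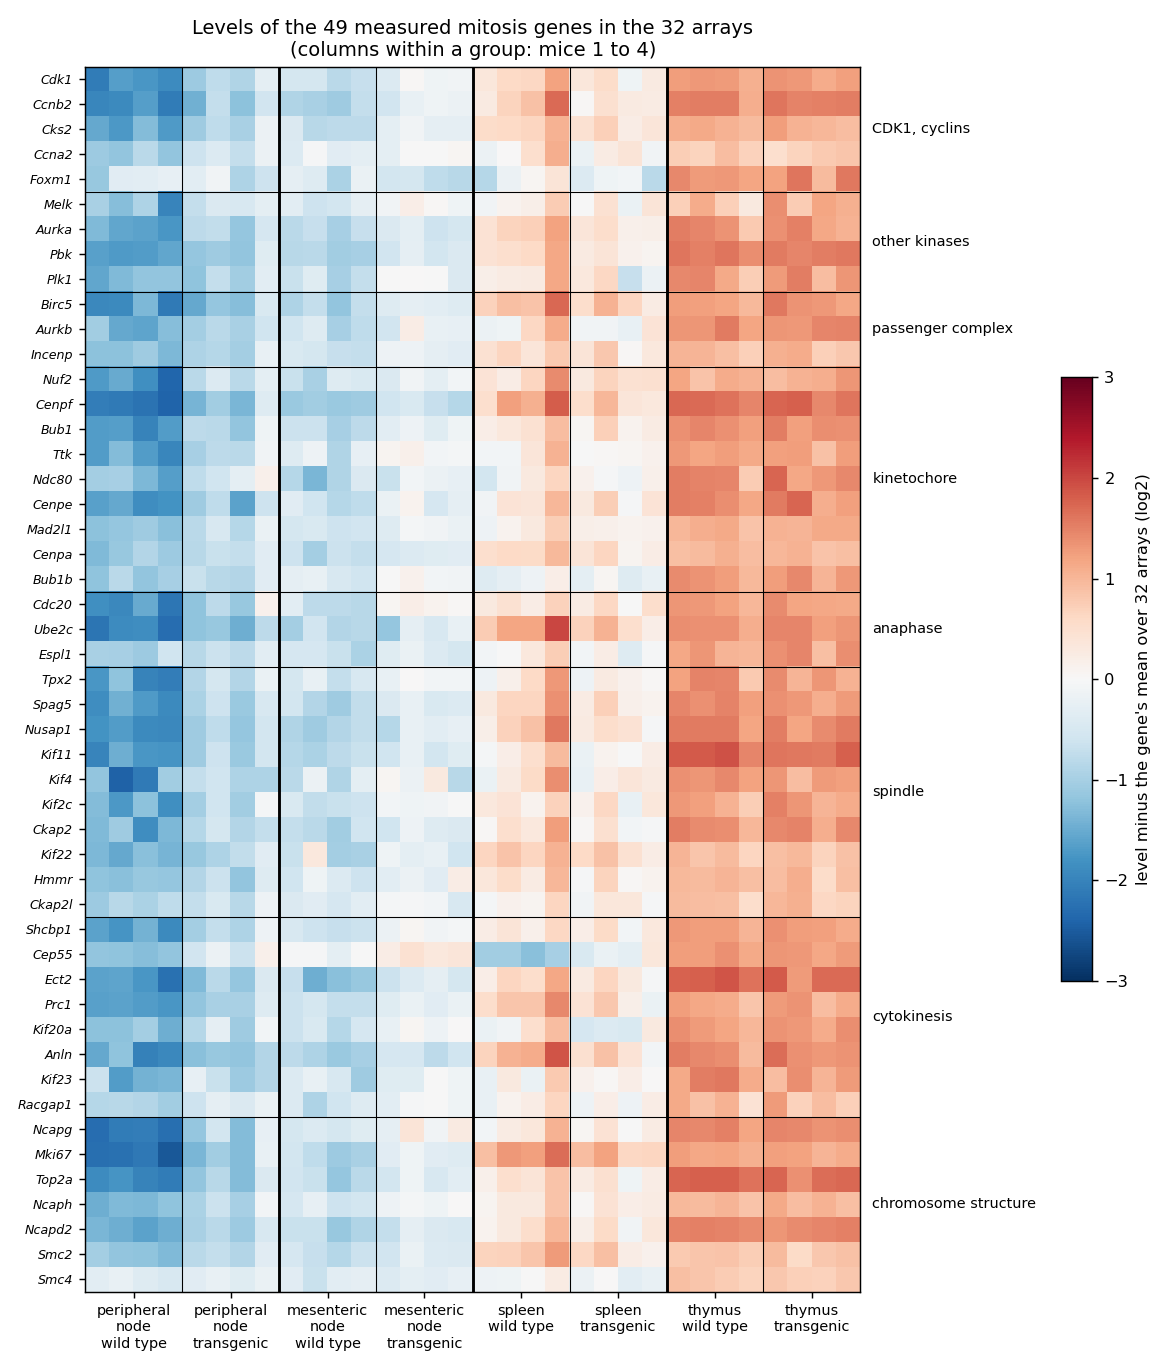
Level of each of the 49 measured genes (rows, grouped by role) in the 32 arrays (columns, mice 1 to 4 within each group), as log2 difference from the mean of that gene over all arrays, from blue (lower) to red (higher). Peripheral nodes of wild type mice are the bluest block and thymus of both genotypes the reddest, and Cep55 is the only cytokinesis gene whose 4 wild type spleens are all blue.

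In peripheral lymph node the mitotic genes were higher in transgenic mice as a group. The mean over the 49 genes read 7.96, 8.23, 7.92 and 8.58 in transgenic mice 1 to 4 and 7.42, 7.45, 7.42 and 7.29 in wild type mice, without overlap. All 49 differences were positive, with a median of 0.80 against -0.01 over all probe sets. None passed limma at an adjusted p below 0.05 within this tissue, where 10 of 27022 probe sets did (0.037%), and the smallest adjusted p of a member was 0.124. At an unadjusted p below 0.05, 45 were higher and 0 lower, against 4.21% and 4.15% of all probe sets. The 4 transgenic values lay above the 4 wild type values for 37 genes, against 2.43% of all probe sets, and below them for 0, against 2.92%. The 4 genes short of that p were Foxm1, Espl1, Kif23 and Smc4. On the values as deposited, without normalization, 17 members passed the adjusted threshold as higher, against 0.396% of all probe sets, whose median was then 0.18. A single limma fit over the 32 arrays, which shares the spread among tissues, called 25 of the 49 higher (background 0.444%) and 0 lower (0.0296%). This fit had no term for the mouse and treated the 4 tissues of a mouse as independent, so its p-values are less sure than those within a tissue.

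Of CDK1 and its partners, Cdk1 stood at 8.87, 9.20, 9.06 and 9.67 in the transgenic nodes and 7.83, 8.29, 8.21 and 8.06 in the wild type nodes. The groups lay apart, by 1.10 ± 0.18 (SE, n = 4 per genotype) or 2.15-fold, with an adjusted p of 0.141 within the tissue and 8.16e-04 in the fit over 32 arrays. Ccnb2, the B type cyclin measured here, differed by 0.96 ± 0.20, the CDK subunit Cks2 by 0.82 ± 0.20 and cyclin A2 (Ccna2) by 0.59 ± 0.14, each without overlap. Another probe set of Ccna2 gave 1.03. Foxm1 differed by 0.02 ± 0.25 and overlapped. Among the other kinases, the spindle pole kinase Aurka differed by 0.80 ± 0.16, Melk by 0.84 ± 0.23 and Pbk by 0.74 ± 0.18, all without overlap. Plk1 read 7.55, 8.09, 7.73 and 8.48 against 7.20, 7.43, 7.58 and 7.58 (0.52 ± 0.20), and there the lowest transgenic value, of mouse 1, fell within the wild type range.

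The chromosomal passenger complex, which corrects faulty attachments of chromosomes to the spindle, had a median difference of 0.53 over 3 genes. Its kinase Aurkb stood 0.53 ± 0.15 higher and its scaffold Incenp 0.47 ± 0.18, both without overlap, and Birc5 0.74 ± 0.25 with overlap. Kinetochore and checkpoint genes had a median of 0.91 over 9 genes, all positive and all with an unadjusted p below 0.05. Nuf2 read 7.26, 7.69, 7.26 and 7.82 in transgenic nodes and 6.32, 6.53, 6.19 and 5.63 in wild type nodes, a difference of 1.34 ± 0.21 or 2.53-fold (adjusted p = 0.133). Every transgenic node lay well above the highest wild type node, and Cenpf did likewise (1.20 ± 0.22). Of the anaphase genes, Cdc20 read 8.98, 9.39, 9.03 and 10.31 against 8.31, 8.23, 8.65 and 7.98, 1.13 ± 0.29 higher, with transgenic mouse 4 far above the others. Ube2c differed by 0.93 ± 0.16, and separase (Espl1), the protease that cleaves cohesin, by 0.28 ± 0.16 with overlap.

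The 10 spindle genes were all higher at an unadjusted p below 0.05. Nusap1, which bundles spindle microtubules, had the smallest p of all members, reading 8.64, 8.94, 8.54 and 9.16 in transgenic and 7.90, 8.01, 7.77 and 7.73 in wild type nodes (0.97 ± 0.15, 1.96-fold, adjusted p = 0.124). Spag5, also called astrin, which acts at spindle poles and kinetochores, read 6.48, 6.83, 6.32 and 6.96 against 5.53, 5.96, 5.70 and 5.50 (0.97 ± 0.17, adjusted p = 0.145). In both genes every transgenic node lay above every wild type node. Tpx2 stood 1.20 ± 0.23 higher. Among cytokinesis genes, Cep55 read 8.29, 8.68, 8.21 and 9.01 against 7.65, 7.62, 7.55 and 7.65 (0.93 ± 0.17), and the wild type nodes were tightly grouped. Shcbp1, which acts at the midbody, and Ect2 differed by 1.02 ± 0.20 and 0.90 ± 0.23.

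Genes of chromosome structure held the largest difference of all members, that of Ncapg, and nearly the smallest, that of Smc4. Ncapg read 7.23, 7.86, 7.07 and 8.19 in transgenic and 6.06, 6.25, 6.27 and 6.09 in wild type nodes, 1.42 ± 0.24 or 2.68-fold (adjusted p = 0.141; 6.04e-04 in the fit over 32 arrays). Mki67 read 9.49, 9.81, 9.55 and 10.62 against 8.57, 8.59, 8.69 and 8.28 (1.33 ± 0.24, 2.52-fold), and Top2a 9.31, 9.66, 9.18 and 10.07 against 8.61, 8.73, 8.47 and 8.39 (1.00 ± 0.19, 2-fold). In all 3 the genotypes lay apart and transgenic mouse 4 was highest. Smc4 read 11.18, 11.30, 11.15 and 11.33 against 11.20, 11.30, 11.14 and 11.03, a difference of 0.07 ± 0.09, while another of its probe sets gave 0.62.

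With these differences, the transgenic peripheral nodes came near the wild type mesenteric nodes on the scale of 32 arrays. The mean of the transgenic peripheral nodes fell within the range of the 4 wild type mesenteric nodes for 34 genes, below it for 12 and above it for 3. Skeletal muscle markers (14 of 14 measured, 12 tested) averaged 5.25 to 9.82 in wild type peripheral nodes and 5.28 to 7.19 in transgenic ones. Without the 3 arrays highest in them, the median over the mitotic genes was 0.91. Germinal centre B cell markers (10 of 12 measured, none of them a member) averaged 7.06 to 7.25 in wild type nodes and 7.82 to 8.73 in transgenic ones. Plasma cell markers averaged 8.28 to 8.71 and 8.86 to 9.56, and pan T cell markers 10.52 to 10.63 and 10.29 to 10.47, both without overlap between wild type and transgenic nodes. Of the pan T cell markers 4 of 9 were lower at an unadjusted p below 0.05 by limma (4.15% of all probe sets), with a median difference of -0.20. The part of these cells in the result was not tested.

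**Figure D4:**
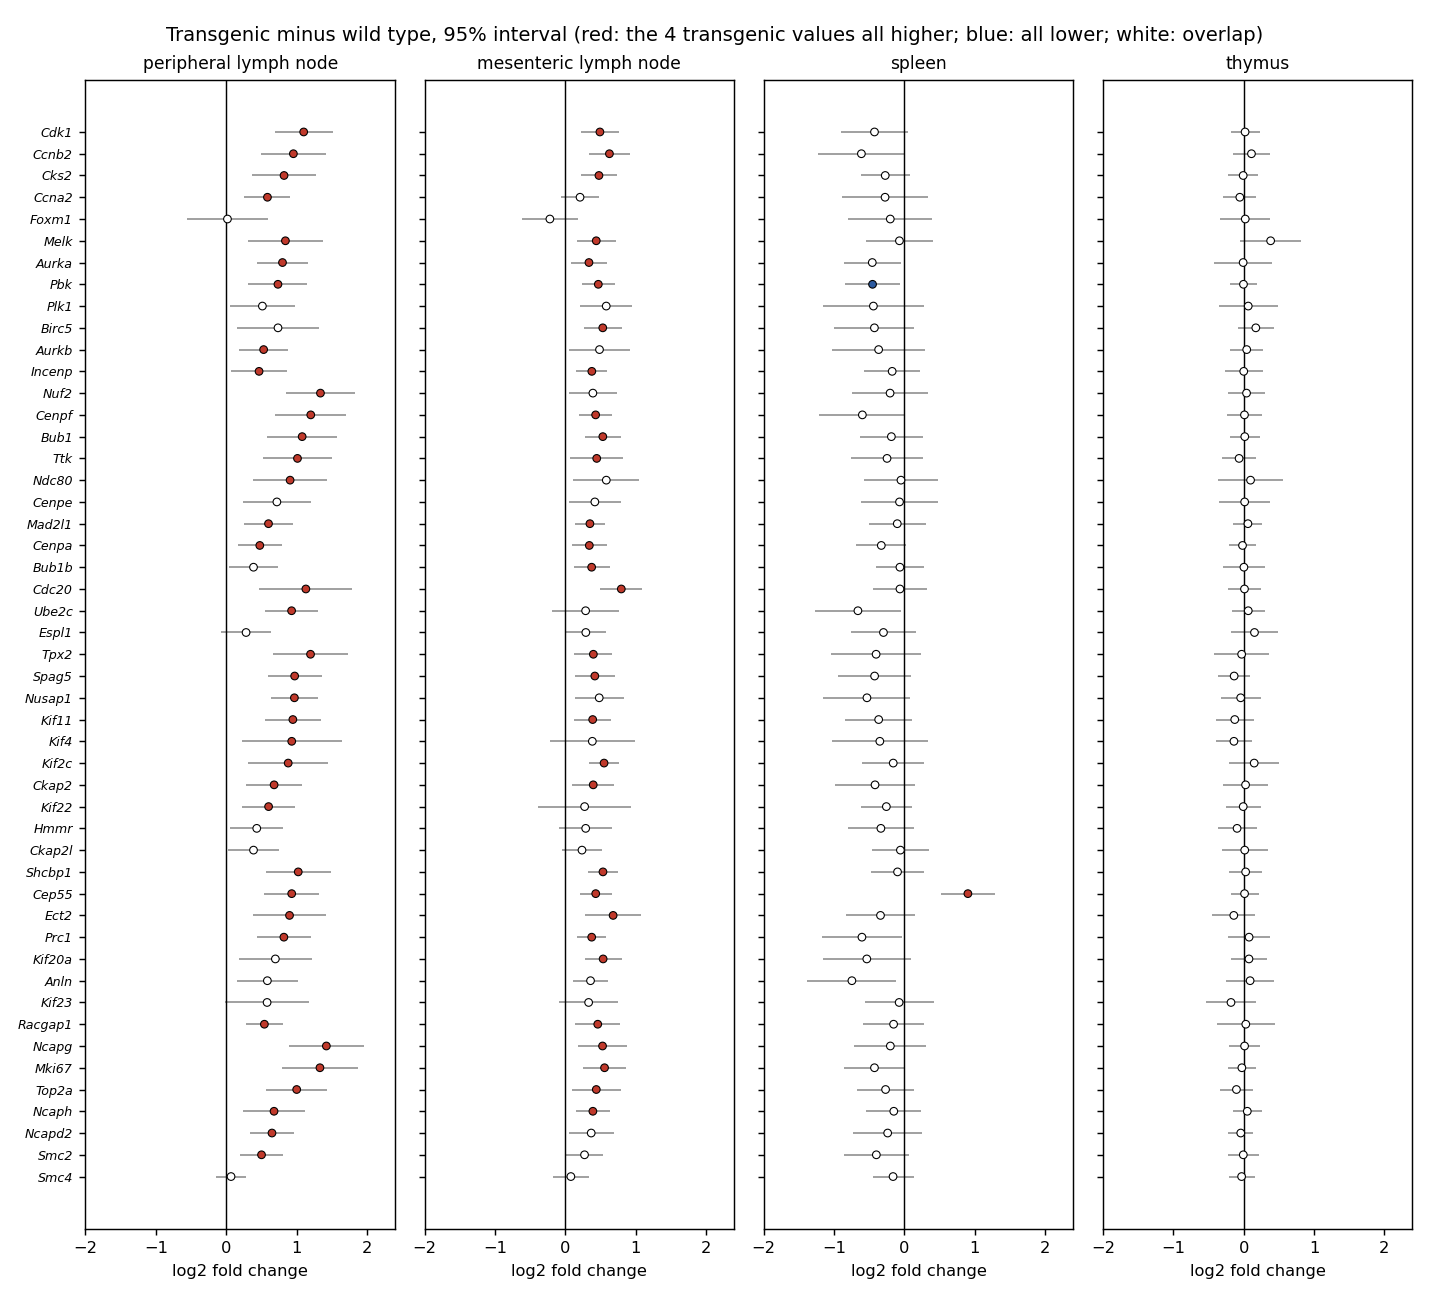
Log2 difference of transgenic minus wild type (horizontal axis, point with 95% interval) for each of the 49 genes (vertical axis) in the 4 tissues. Red points mark genes whose 4 transgenic values all exceed the 4 wild type values (37 in peripheral and 30 in mesenteric node, Cep55 in spleen), the blue point (Pbk in spleen) the reverse, and white points overlap.

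In mesenteric lymph node the mitotic genes were also higher in transgenic mice, by a smaller amount. The mean over the genes read 8.28, 8.53, 8.38 and 8.38 in transgenic and 8.06, 8.04, 7.84 and 7.99 in wild type mice, without overlap. The differences were positive for 48 of 49, with a median of 0.42 against 0.01 over all probe sets. No member and no probe set (0%) passed limma at an adjusted p below 0.05, and the smallest adjusted p of a member was 0.368. The single fit over 32 arrays also called 0 of the 49 (background 0.0074% higher and 0% lower). At an unadjusted p below 0.05, 40 were higher and 0 lower, against 3.22% and 1.5% of all probe sets, and 30 lay apart and higher, against 2.71%, with 0 lower, against 1.23%. The count at the unadjusted p was 13 on the values as deposited (0.736% of probe sets). The median by role ran from 0.29 for the anaphase genes to 0.49 for the passenger genes, and all 9 kinetochore genes were among the 40. The 9 genes short of that p were Ccna2, Foxm1, Ube2c, Kif22, Kif4, Hmmr, Ckap2l, Kif23 and Smc4. Another probe set of Ccna2 gave 0.57 (unadjusted p = 0.0015 by limma, adjusted p = 0.593).

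Cdc20 had the smallest p, with transgenic nodes at 9.94, 10.10, 9.99 and 9.92 and wild type nodes at 9.57, 9.08, 9.09 and 9.03 (0.80 ± 0.13, 1.74-fold, adjusted p = 0.368). The transgenic values were close together and the wild type value of mouse 1 stood above the other 3. Kif2c, a kinesin that takes microtubules apart at the centromere, read 8.36, 8.32, 8.34 and 8.43 against 7.99, 7.69, 7.76 and 7.81 (0.55 ± 0.09). Shcbp1 read 8.58, 8.83, 8.65 and 8.69 against 8.28, 8.15, 8.07 and 8.11 (0.54 ± 0.09). Both genes separated the genotypes with a narrow spread in each. Ccnb2 read 8.66, 9.01, 9.10 and 9.06 against 8.35, 8.27, 8.18 and 8.52 (0.63 ± 0.13), and the checkpoint kinase Bub1 7.58, 7.75, 7.53 and 7.78 against 7.25, 7.25, 6.90 and 7.10 (0.53 ± 0.11), again without overlap.

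Of the genes followed in every tissue, Mki67 read 10.23, 10.43, 10.22 and 10.16 in transgenic and 10.01, 9.78, 9.45 and 9.56 in wild type mesenteric nodes (0.56 ± 0.13). Cdk1 read 9.25, 9.70, 9.54 and 9.55 against 9.12, 9.13, 8.86 and 8.97 (0.49 ± 0.12), and Top2a 9.65, 10.08, 9.72 and 9.89 against 9.63, 9.53, 9.04 and 9.38 (0.44 ± 0.15). All 3 lay apart between genotypes, though by little at the nearest values, least for Top2a. Plk1 read 8.51, 8.53, 8.50 and 8.09 against 7.85, 8.16, 7.51 and 7.78 (0.58 ± 0.16) and overlapped through transgenic mouse 4. Foxm1 was the only member with a negative difference (-0.22 ± 0.17), and another of its probe sets gave 0.22. Exocrine pancreas markers (12 of 15 measured) averaged 4.90 to 13.2 in wild type mesenteric nodes and 4.85 to 12.6 in transgenic ones. Without the 3 arrays highest in them the median over the mitotic genes was 0.52. Germinal centre markers averaged 7.97 to 8.26 in wild type mesenteric nodes and 8.39 to 8.71 in transgenic ones. Plasma cell markers, with 4 of 11 higher at an unadjusted p below 0.05 by limma (3.22% of all probe sets), averaged 9.09 to 9.29 and 9.31 to 9.44. The part of these cells in the result was not tested.

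In spleen the mitotic genes tended to lower values in transgenic mice, with the exception of Cep55, and the size of this depended on a single wild type mouse. The mean over the genes read 9.02, 9.33, 8.94 and 9.03 in transgenic mice 1 to 4 and 9.00, 9.25, 9.32 and 9.89 in wild type mice, so the genotypes overlapped and wild type mouse 4 stood above the rest. The differences were negative for 48 of 49, with a median of -0.28, which was -0.13 without wild type mouse 4. None passed an adjusted p below 0.05 by limma (background 0.0111%), and the smallest adjusted p was 0.421. At an unadjusted p below 0.05, 5 were lower and 1 higher, against 4.34% and 4.22% of all probe sets. The count of 5 was 1 without wild type mouse 4, transgenic mouse 3 or transgenic mouse 4, 3 without wild type mouse 2, wild type mouse 3 or transgenic mouse 1, 16 without wild type mouse 1 and 14 without transgenic mouse 2. The share of all probe sets was not computed with a mouse left out, so these counts have no background beside them. On the values as deposited the count was 32 (11.1% of all probe sets), with a median of -0.49 against -0.17 over all probe sets, and with array weights 0 (3.99%), with a median of -0.14.

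The 5 lower genes were Anln, Pbk, Aurka, Ube2c and the midzone bundler Prc1. Anln read 8.51, 8.89, 8.42 and 7.94 in transgenic and 8.67, 9.05, 9.13 and 9.89 in wild type spleens (-0.75 ± 0.28, adjusted p = 0.563). Ube2c read 10.54, 10.90, 10.35 and 10.07 against 10.61, 11.02, 11.03 and 11.84 (-0.66 ± 0.27) and Prc1 9.36, 9.75, 9.12 and 8.75 against 9.46, 9.78, 9.78 and 10.39 (-0.60 ± 0.25). In each of these the genotypes overlapped and wild type mouse 4 was highest. Aurka read 8.76, 8.93, 8.55 and 8.58 against 8.83, 9.08, 9.12 and 9.62 (-0.46 ± 0.18) and overlapped too. Pbk, a kinase of mitotic lymphoid and germ cells, read 9.24, 9.37, 9.12 and 9.07 against 9.41, 9.49, 9.58 and 10.15 (-0.45 ± 0.17), the only member whose transgenic spleens all lay below the wild type spleens (2.08% of all probe sets did).

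Mki67 read 11.68, 11.96, 11.36 and 11.40 in transgenic and 11.66, 12.04, 11.98 and 12.42 in wild type spleens (-0.43 ± 0.19), and Cdk1 10.21, 10.44, 9.75 and 10.16 against 10.22, 10.47, 10.49 and 11.08 (-0.43 ± 0.21). Top2a read 10.65, 10.88, 10.29 and 10.64 against 10.57, 10.91, 10.78 and 11.26 (-0.27 ± 0.18). In all 3 the genotypes overlapped. Plk1 read 9.05, 9.35, 8.05 and 8.55 against 8.90, 8.98, 9.01 and 9.88 (-0.44 ± 0.32), and Cdc20 10.34, 10.72, 10.08 and 10.63 against 10.38, 10.55, 10.31 and 10.78 (-0.06 ± 0.17), which was nearly level.

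Cep55 in spleen stood apart from all other members. The transgenic spleens read 8.33, 8.58, 8.49 and 9.12 and the wild type spleens 7.77, 7.77, 7.57 and 7.82, a difference of 0.90 ± 0.17 or 1.87-fold in the direction seen in the nodes. Its adjusted p was 0.421 within the tissue and 0.00145 in the fit over 32 arrays, where it was the only member called (0.47% of probe sets were called higher and 0.337% lower). It was the only member to lie apart and higher in spleen (2.8% of all probe sets did). Its other probe set lay near the floor of the scale in spleen, with 3 of 8 arrays at the floor, and gave a difference of 0.32 without a test. Its adjusted p ran from 0.219 to 0.827 over the other settings within the tissue, and the difference from 0.70 to 1.00.

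Other measures of the spleen arrays stand beside these values. Erythroid markers (11 of 15 measured) averaged 10.1 to 11.2 in wild type spleens and 9.10 to 10.4 in transgenic ones, with wild type mouse 4 highest and transgenic mouse 4 lowest. Lymphocyte precursor markers averaged 7.33 in wild type mouse 4 and from 6.35 to 6.78 in the other 7 spleens. Exocrine pancreas markers averaged 7.04 in wild type mouse 1, 6.27 in wild type mouse 4 and from 5.12 to 5.50 in the remaining spleens. Germinal centre markers averaged 6.74 to 7.04 in wild type spleens and 7.71 to 8.82 in transgenic ones, and plasma cell and pan T cell markers had median differences of 0.55 and 0.30. The Actb ratio was 2.83 to 3.58 in mice 1 and 2 of both genotypes and 1.65 to 1.85 in mice 3 and 4. Their part in the result was not tested.

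In thymus no difference between genotypes was detectable in any member on the probe set read for it. The mean over the genes read 10.05, 9.97, 9.86 and 9.96 in transgenic and 10.03, 10.01, 10.01 and 9.74 in wild type mice. Differences were positive for 29 genes and negative for 20, with a median of 0.01 and a range from -0.18 ± 0.15 for the midzone motor Kif23 to 0.38 ± 0.19 for Melk. No member passed limma at an adjusted p below 0.05 (background 0.0037%), at an unadjusted p below 0.05 (0 higher and 0 lower, against 3.97% and 3.29% of probe sets), or in the fit over 32 arrays (0.181% and 0.0259%). None lay apart (2.54% of probe sets higher and 2.07% lower). Of 50 other probe sets of the members, 4 were lower and 1 higher at an unadjusted p below 0.05 by limma (3.29% and 3.97% of all probe sets). Among the lower were 1 of Cenpa (-0.87) and 1 of Cenpf (-0.85), each with an adjusted p of 0.659. Melk, whose p was the smallest, read 8.77, 8.15, 8.55 and 8.43 against 8.08, 8.49, 8.10 and 7.68 and overlapped. Pan B cell markers had a median difference of 0.59 in thymus, plasma cell markers 0.35 and germinal centre markers -0.06.

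The genes followed in every tissue showed small differences in thymus. Mki67 read 11.79, 11.77, 11.59 and 11.69 in transgenic and 11.82, 11.74, 11.75 and 11.63 in wild type thymus (-0.02 ± 0.09). Cdk1 read 11.08, 11.03, 10.87 and 10.96 against 10.99, 11.04, 11.02 and 10.81 (0.02 ± 0.09), and Cep55 9.98, 9.97, 9.83 and 9.93 against 9.91, 9.91, 10.04 and 9.79 (0.01 ± 0.09). In these the genotypes overlapped within a narrow range. Top2a read 11.93, 11.58, 11.88 and 11.92 against 11.94, 11.98, 11.97 and 11.83 (-0.10 ± 0.10), Plk1 9.88, 10.14, 9.54 and 9.93 against 10.04, 10.06, 9.75 and 9.37 (0.07 ± 0.18) and Cdc20 11.33, 11.12, 11.10 and 11.08 against 11.25, 11.23, 11.15 and 10.95 (0.01 ± 0.10). For Mki67 the 95% interval of the difference was -0.22 to 0.17, and for Cdk1 -0.19 to 0.23.

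Whether the genotype difference itself varied between tissues was tested on each mouse's difference between 2 tissues. The genotype difference was larger in the nodes than in spleen for 48 of 49 genes, with a median of 0.96. None passed an adjusted p below 0.05 by limma (background 0%), with a smallest adjusted p of 0.548, and 44 were higher and 0 lower at an unadjusted p below 0.05 (3.8% and 2.88% of probe sets). The smallest p were those of Kif11 (1.04 ± 0.19), Cdk1 (1.22 ± 0.24), Mki67 (1.37 ± 0.27), Ccnb2 (1.40 ± 0.28) and Ncapg (1.18 ± 0.24). Cep55 was the only member with a negative value (-0.22 ± 0.13), and did not pass. Against thymus, the median was 0.56, again with 0 called (background 0%, smallest adjusted p 0.224) and 43 higher and 0 lower at an unadjusted p below 0.05 (3.35% and 4.36% of probe sets). The count of 43 became 21 on the values as deposited (1.27% of probe sets) and 27 with the mesenteric node alone (2.04%). Mki67 (0.97 ± 0.15), Spag5 (0.83 ± 0.13), Nuf2 (0.82 ± 0.13), Cenpf (0.80 ± 0.13) and Cdk1 (0.78 ± 0.15) had the smallest p there.

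The genotype difference was smaller in mesenteric than in peripheral node for 46 of 49 genes, with a median of -0.33. None passed (background 0%, smallest adjusted p 0.830), and 16 were lower and 0 higher at an unadjusted p below 0.05 (2.69% and 2.81% of probe sets). That count was 5 with arrays brought to a common median only (1.92% of probe sets) and 4 on the values as deposited (2.86%). Without wild type mouse 4 it was 10, with no share of all probe sets computed. The median was -0.17 without transgenic mouse 4, whose peripheral node had the highest mean over the genes. The smallest p were those of Ncapg (-0.89 ± 0.17), Tpx2 (-0.80 ± 0.19), Nuf2 (-0.95 ± 0.28), Kif11 (-0.56 ± 0.17) and Cdk1 (-0.61 ± 0.19). The 3 sets of differences share arrays and are given side by side only.

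Genes outside the 50 were read from lists by role. Of other mitosis genes (56 of 60 measured), 32 of 47 tested in peripheral node were higher at an unadjusted p below 0.05 by limma, against 4.21% of all probe sets. In mesenteric node 34 of 53 were, against 3.22%. The medians were 0.49 and 0.41. The centriole assembly factor Stil (1.31 ± 0.18), Depdc1a (0.80 ± 0.11) and Sgo2a, a protector of centromeric cohesion (1.41 ± 0.26), had the smallest p in peripheral node, with adjusted p of 0.117, 0.117 and 0.165. DNA replication genes (54 of 56 measured) had medians of 0.31 and 0.33, with 31 and 33 of 53 higher at that p, against the same 4.21% and 3.22%. Dtl, which targets the licensing factor CDT1 for destruction, was the only listed gene of replication to pass the adjusted threshold in peripheral node (1.79 ± 0.19, adjusted p = 0.0289). Rfc4, of the clamp loader, followed with 0.48 ± 0.10 and the nucleotide reductase subunit Rrm2 with 0.90 ± 0.19.

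Other lists of cell cycle control had medians nearer 0. The 16 subunits and partners of the anaphase promoting complex had a median of 0.03 in peripheral node with 0 at an unadjusted p below 0.05 (4.21% of all probe sets were higher and 4.15% lower). The smallest p were those of Ube2s (0.21 ± 0.11), Fzr1 (0.18 ± 0.10) and Anapc13 (-0.28 ± 0.17). The 10 G1 cyclins and kinases had a median of 0.04, with 1 higher (background 4.21%), Cdk6 (0.34 ± 0.12), followed by Ccnd2 (-0.16 ± 0.11) and Ccnh (0.14 ± 0.12). Of the MuvB, RB and E2F genes 5 of 17 were higher (background 4.21%), with a median of 0.14. They were led by the MYB factors Mybl1 (1.76 ± 0.29) and Mybl2 (0.68 ± 0.16) and the repressor E2f8 (0.86 ± 0.24). Mybl1 is also on the list of germinal centre markers, so these 2 lists are not separate readings. Cell cycle inhibitors (16 tested) had a median of -0.02 with 3 lower at an unadjusted p below 0.05 (4.15% of all probe sets). These were Cdkn2a (-0.61 ± 0.18), Cdkn1a, which encodes p21 (-0.35 ± 0.11), and Cdkn1c (-0.41 ± 0.15). No gene of these 4 lists passed the adjusted threshold within any tissue. The fit over 32 arrays called 10 other mitosis genes, 6 replication genes and 2 of the MuvB, RB and E2F list (Mybl1 and Mybl2) higher in peripheral node (background 0.444%). In spleen it called Mybl1 higher (1.34 ± 0.29, background 0.47%) and Tfdp2 lower (-0.92 ± 0.31, background 0.337%). In spleen the medians were -0.34 for other mitosis genes and -0.21 for replication genes. At an unadjusted p below 0.05 by limma, 6 of 53 and 4 of 54 were lower there, against 4.34% of all probe sets. In thymus the medians were 0.04 and 0.05, with 0 in either direction (3.97% of all probe sets higher and 3.29% lower).

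**Figure D5:**
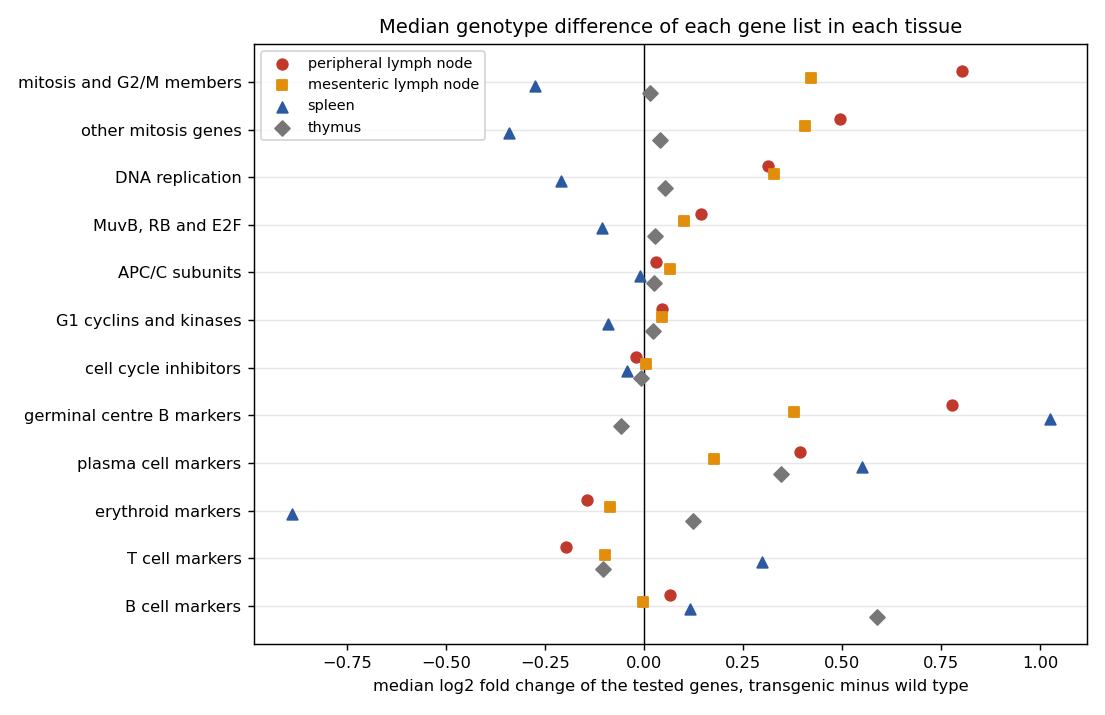
Median log2 difference of transgenic minus wild type (horizontal axis) over the tested genes of each list (vertical axis), with a symbol for each tissue. The members, other mitosis genes and replication genes lie right of 0 in both nodes and left of 0 in spleen, whereas germinal centre markers lie right of 0 in both nodes (0.78 and 0.38) and in spleen (1.02).

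The members followed each other closely over the 32 arrays. The correlation of a member with the mean of the other members ran from 0.70 for Cep55, 0.79 for Foxm1 and 0.87 for Smc4 to 0.99 for Spag5, as a description over arrays that share mice and tissues. These values include the differences between tissues. With the mean of each tissue removed, the correlation ran from 0.24 for Foxm1, 0.45 for Cep55 and 0.52 for Kif23 to 0.96 for Cdk1. With the mean of each group of tissue and genotype removed, it ran from 0.26 for Kif23 and 0.31 for Kif4 to 0.91 for Cenpf. Among 12934 other genes, those most like the mean of the members were Aspm (Pearson r = 0.992), Arhgap11a (0.992), Spc25 (0.990), Uhrf1 (0.990), Rad51ap1 (0.988), Plk4 (0.987), Sgo2a (0.982), Stil (0.981), Ccnf (0.981) and Atad5 (0.981). Members with a CHR core in the promoter window (29 genes) had a median genotype difference of 0.91 in peripheral node and those without (11 genes) 0.74; in mesenteric node the medians were 0.42 and 0.42, in spleen -0.33 and -0.20.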

How the data were processed

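Affymetrix arrays of total RNA (5 µg, biotin-labelled, per the labels' protocols) were read from the deposited table of 45101 probe sets. The authors' deposited values are intensity values on a linear scale, between 14.9% and 18.4% of them negative per array; their algorithm and scaling were not stated in any label or header. Control probe sets (64) were left out, negative values set to 0, 16 added and log2 taken. Arrays were quantile normalized within each tissue for genotype comparisons and over all 32 arrays for tissue levels. Those whose mean exceeded the 40th percentile of all were tested with limma 3.58.1 (R 4.3.3) with Benjamini-Hochberg adjustment over all tested. Tissues were compared in wild type mice with mouse as a block. Differences of the genotype effect were tested on each mouse's difference between tissues. The fits were tested on simulated data.

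Probe sets were named from GEO's platform annotation: 34945 had 1 symbol, 932 several and 9160 none, and 34741 of the 34945 matched RefSeq by gene ID. Of the 49 measured members, 32 had several probe sets. Genes given array by array were 6 followed in every tissue and the 5 with the smallest p in the genotype comparisons of both nodes and spleen. In thymus only Melk, with the smallest p, was added to the 6. Cep55 in spleen was given because it opposed the median member. Summary values were given for the 5 largest tissue differences and the 3 genes with the smallest p per pathway list. The members and lists were chosen with earlier results of these data known.

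The same mouse number in both genotypes is not stated to mark a shared litter or day, and arrays of the same number correlated between -0.34 and 0.31 after removal of group means, so genotype comparisons had no block. No pair of arrays was identical (highest correlation 0.986).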

Additional observations from a re-analysis of the deposited data

Results flagged for a closer look

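Among 56 groups of 4 arrays checked (the 6 genes followed in every tissue and the mean over the members), 7 held an array far from the other 3; chance gives about 1 in 20 groups. Plk1 was lowest at 8.09 in the mesenteric node of transgenic mouse 4 (others 8.50 to 8.53) and highest at 9.88 in the spleen of wild type mouse 4 (others 8.90 to 9.01). Cdc20 was highest at 9.57 in the mesenteric node of wild type mouse 1 (others 9.03 to 9.09) and at 11.3 in the thymus of transgenic mouse 1 (others 11.1). Cep55 was lowest at 8.28 in the mesenteric node of wild type mouse 3 (others 8.52 to 8.54). Top2a was lowest at 11.6 in the thymus of transgenic mouse 2 (others 11.9). The mean over the members was lowest at 9.74 in the thymus of wild type mouse 4 (others 10.01 to 10.03), the mouse whose spleen had the highest mean.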

How the results depend on the processing

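No called result changed direction under the alternatives run; the thymus median, near 0, changed sign. Among the members called, in peripheral node 17 passed the adjusted threshold without normalization and 25 in 1 fit over all 32 arrays, and 1 passed in spleen in that fit, against 0 each as reported. With a pseudocount of 64 the median was 0.57 in peripheral node, -1.95 for nodes versus thymus and 0.67 for mesenteric versus peripheral node, and with 1 it was -2.50 for nodes versus thymus. For mesenteric versus peripheral node the median was 0.59 with 2 calls without normalization and 0.70 with a common median. With the second probe set per gene, the median was 0.26 in mesenteric node, -0.10 in thymus, -2.20 for nodes versus thymus and 0.71 for mesenteric versus peripheral node. Of the 27 genes then tested between tissues, 21 were called for nodes versus spleen, 26 for nodes versus thymus and 5 for mesenteric versus peripheral node; fewer genes had a second probe set. Without the 3 mesenteric arrays highest in pancreas markers the median was 0.52 there. For the difference of the genotype effect between nodes and thymus, the median was 0.74 with the peripheral node alone, against 0.56 with both nodes. An alternative chosen after seeing the data left out the wild type node arrays highest in muscle or pancreas markers. It gave 7 calls between the nodes, without a share of all probe sets computed. The cause of these shifts was not tested.

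Leaving out 1 mouse at a time gave 5 to 20 calls for mesenteric versus peripheral node (median 0.82 to 0.90), 47 to 49 for nodes versus spleen (-1.80 to -1.46) and 49 to 49 for nodes versus thymus (-2.38 to -2.23). The share of all probe sets was not computed for these settings. The genotype medians ran from 0.65 to 0.89 in peripheral node, 0.35 to 0.44 in mesenteric node, -0.40 to -0.13 in spleen and -0.05 to 0.04 in thymus, and no member passed.

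With the mouse number as a replicate block, 0 members were called in each genotype comparison and the medians were the same, with 46, 38, 1 and 0 members higher at an unadjusted p below 0.05 in peripheral node, mesenteric node, spleen and thymus by limma. The share of all probe sets under that block was not computed, so these counts have no background beside them. Without the mouse block between tissues, 31 members were called for mesenteric versus peripheral node, 48 for nodes versus spleen and 49 for nodes versus thymus, again without a share of all probe sets computed. The block changed no other count of calls.

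With 4 mice per genotype the precision is limited by their number, and the values have no counts behind them. Differences at low levels are understated by the added constant.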

Other observations

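The members' other probe sets gave a second reading of the same RNA. In peripheral node, 32 of 58 other probe sets passed the filter on low values; all 32 differences between transgenic and wild type mice were positive and 19 were higher at an unadjusted p below 0.05 by limma (4.21% of all probe sets). In mesenteric node, 28 of 37 were positive and 12 were higher at that p (3.22%). In spleen 39 of 44 were negative, with 4 lower and 2 higher at that p (4.34% and 4.22%). In thymus 37 of 50 were negative, with 4 lower and 1 higher (3.29% and 3.97%). The counts in spleen and thymus are small, with those of lower probe sets above the background share. No other probe set of a member passed the adjusted threshold in any tissue.

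With the mean of each tissue removed, the likeness rests on differences among mice, those between the genotypes included. The genes outside the 50 then most like the mean of the members were Aspm (r = 0.953 over 32 arrays), Ezh2 (0.946), Uhrf1 (0.942), Rrm2 (0.937), Asf1b (0.936), Cip2a (0.931), Lig1 (0.929), Mybl2 (0.926), Cdca3 (0.924) and Nek2 (0.924). Aspm, a spindle pole protein, and Uhrf1, which maintains DNA methylation through replication, were among the 10 most alike by both measures.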
